A study of Mus musculus with 24 samples.

Results

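The heat shock factor Hsf1 and 9 chaperone or co-chaperone genes were followed through RNA-seq libraries of mouse choroid, 10 of the 56065 genes in the deposited table. Hsf1 was chosen by its measured level, which was lower with laser in wild type mice. The other members, Hspa1a, Hspa1b, Hspb1, Hsph1, Dnajb1, Hsp90aa1, Hspa8, Hspd1 and Bag3, were listed with it by name, and are known chaperone or co-chaperone genes. All 10 passed the filter on low values. The difference with laser in wild type choroid is therefore given as a description, and the same difference was tested between libraries of mice without Ceacam1, which the choice did not use. The wild type libraries still entered the estimate of the spread in that test.

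The tissue was choroid from wild type mice and from Ceacam1-/- mice, in which exons 1 and 2 of the cell adhesion gene Ceacam1 are deleted in all cells. Both were littermates on the C57BL/6J background, of both sexes. The study's default age was 6 to 8 weeks, but the labels give no age, and the age of the laser-treated mice is not given in the sources used here. There were 4 wild type libraries without laser (numbers 21, 22, 26 and 27 of the labels), 9 with laser (1, 2, 3, 11, 12, 13, 16, 17 and 19), 4 Ceacam1-/- libraries without laser (23, 24, 25 and 28) and 7 with laser (4, 5, 6, 7, 14, 15 and 18). Laser spots set with an Nd:YAG laser injure the layers under the retina and are used to induce choroidal neovascularization. The time between laser and tissue collection is not given in the sources used here, and anaesthesia and laser are described in the labels of all libraries, including those named as without laser. Summed over genes, normalized counts per library ranged from 23979741 to 27093809 in wild type without laser and from 23717571 to 28563124 with laser, and from 23819561 to 35094410 in Ceacam1-/- without laser and from 23704346 to 25940731 with laser. The labels do not say whether libraries of a group came from separate animals, so p-values measure the spread between these libraries. In tissue libraries, fewer cells of a type and less RNA per cell cannot be told apart.

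Hsf1 encodes the main transcription factor of the heat shock response. In unstressed cells it is held inactive by chaperones, and when unfolded proteins occupy these chaperones it forms trimers, binds heat shock elements and switches on chaperone genes. Its activity is set by trimer formation and modification of the protein, which an RNA level does not measure. The chaperones made in this way include the HSP70 proteins, which bind exposed stretches of unfolded proteins, and the J-domain proteins, nucleotide exchange factors, HSP90, chaperonins and small heat shock proteins that work with them.

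Heat shock elements are repeats of the unit NGAAN in alternating orientation. A single annotated transcript start was used per member, which for Hspd1, Hsp90aa1, Hspa8, Hsph1 and Dnajb1 lay inside the annotated gene. The 200 bases before this start were searched in the GRCm39 genome for a pair of inverted units, written GAANNTTC or TTCNNGAA, both of which read the same on either strand and may overlap each other. Such a pair stood in 9.75% of 21757 promoters of protein-coding genes, and in 5 of the 10 members, Hspa1a, Hspa1b, Hspb1, Hspd1 and Hsph1. Runs of 3 units, TTCNNGAANNTTC or GAANNTTCNNGAA, stood in 0.276% of promoters and in Hspd1 alone among the members. The stretches next to the start site of 4 of these genes are shown, because the Hspa1a and Hspa1b stretches are almost the same and these genes varied together, and because Hspb1 and Hspd1 hold several units. Each is written 5′ to 3′ on the strand of the gene and ends at the base before the start, with the units found in capitals. Such a match is a description of the letters and not a measured binding site. Only exact units were searched, so an element with an altered unit would be missed. A member without a match can therefore still hold an element.
Hspa1a, chr17:35191133-35191252, minus strand: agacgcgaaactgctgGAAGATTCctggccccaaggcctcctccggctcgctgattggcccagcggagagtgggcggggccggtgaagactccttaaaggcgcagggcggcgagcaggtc
Hspa1b, chr17:35178215-35178334, minus strand: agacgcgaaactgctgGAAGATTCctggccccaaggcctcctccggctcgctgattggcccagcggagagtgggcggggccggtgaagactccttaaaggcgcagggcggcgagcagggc
Hspb1, chr5:135916640-135916759, plus strand: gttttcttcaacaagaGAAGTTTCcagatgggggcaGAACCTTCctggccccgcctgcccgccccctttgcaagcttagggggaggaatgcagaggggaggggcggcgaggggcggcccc
Hspd1, chr1:55127184-55127259, minus strand: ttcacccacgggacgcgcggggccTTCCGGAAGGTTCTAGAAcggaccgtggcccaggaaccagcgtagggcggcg

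Hsf1 lies on the plus strand of chr15:76361558-76388138 in GRCm39, with 13 exons in its canonical transcript. Normalized counts are reads of a gene scaled by the authors for library size and transcript length between libraries, not for length between genes. For Hsf1 the normalized count was 1522, 1777, 1828 and 1572 in the wild type libraries 21, 22, 26 and 27 without laser. With laser, the 9 wild type libraries had 951 at the lowest, 1055 at the median and 1395 at the highest. All 9 laser libraries were below all 4 libraries without laser, at means of 1098 ± 134 (SD, n = 9) and 1675 ± 150 (SD, n = 4), a difference of -0.61 on the log2 scale (of the normalized count plus 1, as for all differences here). Of 19950 genes tested, 5.28% passed the threshold of an adjusted p of 0.05 in this comparison, and 1.75% had all laser libraries below all others.

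In Ceacam1-/- choroid, Hsf1 was 1480, 2106, 1975 and 1847 in libraries 23, 24, 25 and 28 without laser. With laser the 7 libraries ranged from 1238 to 1567 with a median of 1365, and 6 of them were below the lowest library without laser. Library 14, at 1567, was above library 23. Hsf1 fell from a mean of 1852 ± 269 (SD, n = 4) to 1362 ± 109 (SD, n = 7), a difference of -0.43 on the log2 scale, or 0.740 of the level without laser (95% interval of the log2 difference -0.68 to -0.19, adjusted p = 0.0445, limma with Benjamini-Hochberg adjustment over 19950 genes). A two-sided exact permutation test over the 330 splits of these 11 libraries gave p = 0.00606. In this comparison 3.72% of all genes passed the threshold and 1.65% were lower. The adjusted p lay close to the threshold: it was between 0.00701 and 0.198 when single libraries were left out and above 0.05 without any of 17 of the 24, with a log2 difference of -0.54 to -0.37. Of these 17, 8 were wild type libraries, which enter the estimate of the spread. It was also above 0.05 in a fit of only the 11 Ceacam1-/- libraries (0.248).

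**Figure D1:**
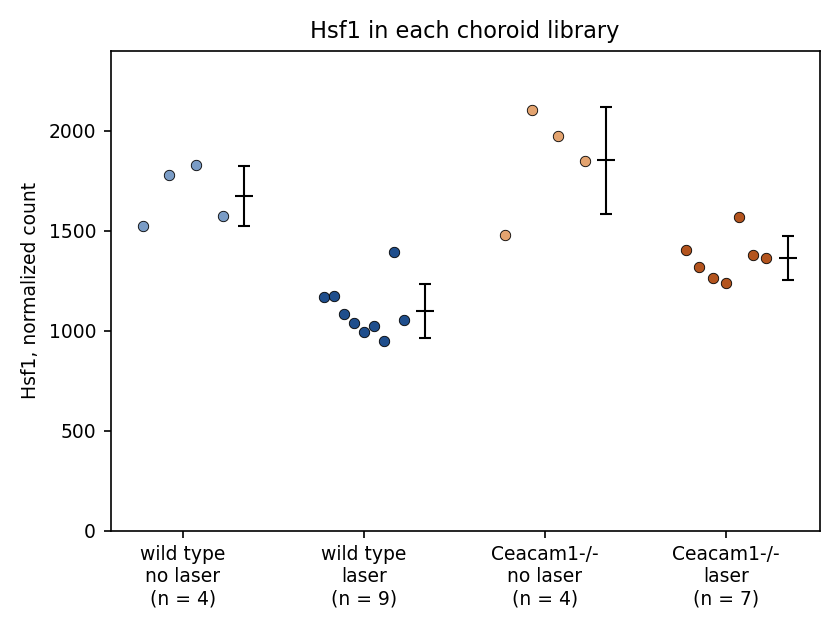
Normalized count of Hsf1 (vertical axis, from 0) in each library of the 4 groups, with the mean and SD beside the points. All 9 wild type laser libraries (951 to 1395) are below the 4 without laser (1522 to 1828), and 6 of 7 Ceacam1-/- laser libraries (1238 to 1567) are below the lowest without laser (1480).

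Hsf1 was among the genes that varied least within groups. Its SD within groups was 0.157 on the log2 scale, at percentile 0.707 of all genes tested. This spread includes the wild type libraries by which Hsf1 was chosen, so its rank is not independent of the choice and is a description only. Marker sums of several cell types differed between the groups. Summed normalized counts of 8 skeletal muscle markers (most abundant Acta1) had medians of 417878 without and 307142 with laser in wild type and 487806 and 98612 in Ceacam1-/-. Sums of 8 myeloid markers (C1qb) had medians of 7663 without and 26766 with laser in wild type and 9552 and 29806 in Ceacam1-/-, with 7 and 3 of the 8 genes past the threshold. The Ceacam1-/- laser group was split, with myeloid sums of 29806 to 38879 in libraries 4, 5, 6 and 7. Libraries 14, 15 and 18 had 13751, 10426 and 6997, where the Ceacam1-/- libraries without laser had 9296 to 10814. Sums of 6 fibroblast markers (Col1a1) had medians of 136990 and 316528 in wild type and 108996 and 423932 in Ceacam1-/-, with 2 and 1 of 6 past the threshold. Fibroblast sums were likewise 423932 to 670099 in libraries 4, 5, 6 and 7 and 45447, 110283 and 88608 in libraries 14, 15 and 18. Sums of 7 photoreceptor markers (Gnat1) had medians of 102927 and 28944 in wild type and 13719 and 87814 in Ceacam1-/-, and those of 7 markers of the retinal pigment epithelium (RPE, Ttr) had 358407 and 379497 and 357085 and 172871. Sums of 7 lens markers (Cryaa) had medians of 561 and 4139 in wild type and 378 and 5549 in Ceacam1-/-. Sums of 5 surface epithelium markers (Krt12) had medians of 16905 and 322 in wild type and 4497 and 279 in Ceacam1-/-, with all 5 genes below 0 in the log2 difference with laser in both. Single wild type libraries without laser lay far from that median, at 88, 265039, 41 and 33722 in libraries 21, 22, 26 and 27. Medians were 53124 and 86478 and 75187 and 91629 for 5 melanocyte markers (Dct). For 7 endothelial markers (Plvap) they were 19359 and 28109 and 26950 and 25519. Of these lists, the lens and surface epithelium lists alone had genes at 0 in single libraries. No muscle, photoreceptor, RPE, lens, surface epithelium, melanocyte or endothelial marker passed the threshold in either genotype. The part of these cell types in the Hsf1 difference was not tested.

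Hsf1 overlaps Dgat1 over 3056 bases and Bop1 over 522 bases, both on the opposite strand, and the sources used here do not say that strand was used in counting. Reads from overlapping stretches cannot be told apart. Dgat1, an enzyme of triglyceride synthesis, differed with laser by -0.18 in wild type and 0.04 in Ceacam1-/- on the log2 scale. Bop1, a ribosome biogenesis factor, differed by 0.17 and -0.07. Neither neighbour had a difference as large as that of Hsf1 in either genotype.

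The 5 protein-coding genes whose log2 levels followed Hsf1 most closely over the 24 libraries were Mtg2 (Pearson r = 0.911), Snx21 (0.879), Fry (0.871), Nr3c2, the mineralocorticoid receptor (0.867), and 2510002D24Rik (0.864). These values describe libraries that share their groups and their composition. With group means removed, r was 0.69 for Mtg2, 0.67 for Snx21, 0.61 for Fry, 0.69 for Nr3c2 and 0.68 for 2510002D24Rik. Mean normalized counts of Mtg2 were 556 and 378 without and with laser in wild type and 641 and 477 in Ceacam1-/-. No chaperone gene was among the 5.

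The stress-inducible HSP70 proteins are made from Hspa1a (chr17:35188166-35191132) and Hspa1b (chr17:35175412-35178214), neighbouring genes of 1 exon on the minus strand. Their coding sequences, of 1923 and 1926 bases, were 99.4% identical in a global alignment, and the 200 bases before their starts were 99.5% identical. Reads of this pair can therefore be split wrongly between them, and their values should be read together. The sum of both genes had a median of 3004 normalized counts without laser (1129 to 8060) and 1018 with laser (763 to 4229) in wild type, and of 1871 (795 to 6577) and 1468 (899.7 to 10022) in Ceacam1-/-, with overlapping groups in both genotypes. Hspa1a also has a lncRNA, Gm20481, on its opposite strand, which had a median of 0 in 3 groups and reached 29.5 normalized counts at most.

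Hspa1b was 1809, 5957, 493 and 1654 in the wild type libraries 21, 22, 26 and 27, and 355 at the lowest, 462 at the median and 2800 at the highest with laser. In Ceacam1-/- it was 1046, 746, 264 and 4681 in libraries 23, 24, 25 and 28, and 457, 797 and 7773 at the lowest, median and highest with laser. Each group held 1 library far above its median, and all groups overlapped. Hspa1a was 1668, 2103, 636 and 876 in wild type without laser and from 409 to 1429 with a median of 527 with laser, 8 of the 9 laser libraries being below the lowest without laser. In Ceacam1-/- it was 1018, 932, 532 and 1895 without laser and from 443 to 2250 with a median of 670 with laser. In wild type the log2 differences with laser were -1.59 for Hspa1b and -1.03 for Hspa1a. In Ceacam1-/- they were 0.01 for Hspa1b (95% interval -1.54 to 1.56, adjusted p = 0.996 by limma) and -0.21 for Hspa1a (-1.12 to 0.69, adjusted p = 0.816). The interval of Hspa1b is wide, and these libraries do not tell apart differences of the sizes within it.

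The libraries with the most Hspa1b were 15 (7773), 22 (5957), 28 (4681) and 19 (2800), 1 from each group. The same 4 libraries had the highest sums of 5 surface epithelium markers, Krt5, Krt14, Krt12, Krt13 and Krt4, with Krt12, a corneal keratin, the most abundant. The sums were 326591, 265039, 284303 and 123296 normalized counts, against 33722 in library 27, the next, and 7476 or less in the other 19. Up to 2 of these 5 markers were at 0 in single libraries with low sums, and none in the 4 high ones. In the other 20 libraries Hspa1b ranged from 264 to 1809 with a median of 520. Hspa1a was 1429 to 2250 in the 4 libraries and 409 to 1668 in the other 20, and Dnajb1 was 1702 to 2293 and 899 to 1758. Without the 4 libraries the SD of Hspa1b within groups was 0.602 in place of 1.28, and the log2 difference with laser was -1.27 in wild type and 0.26 in Ceacam1-/-. Because these are also the 4 libraries with the most Hspa1b, the smaller SD follows from leaving them out and is a description only. The part of epithelial cells in the Hspa1b level was not tested.

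**Figure D2:**
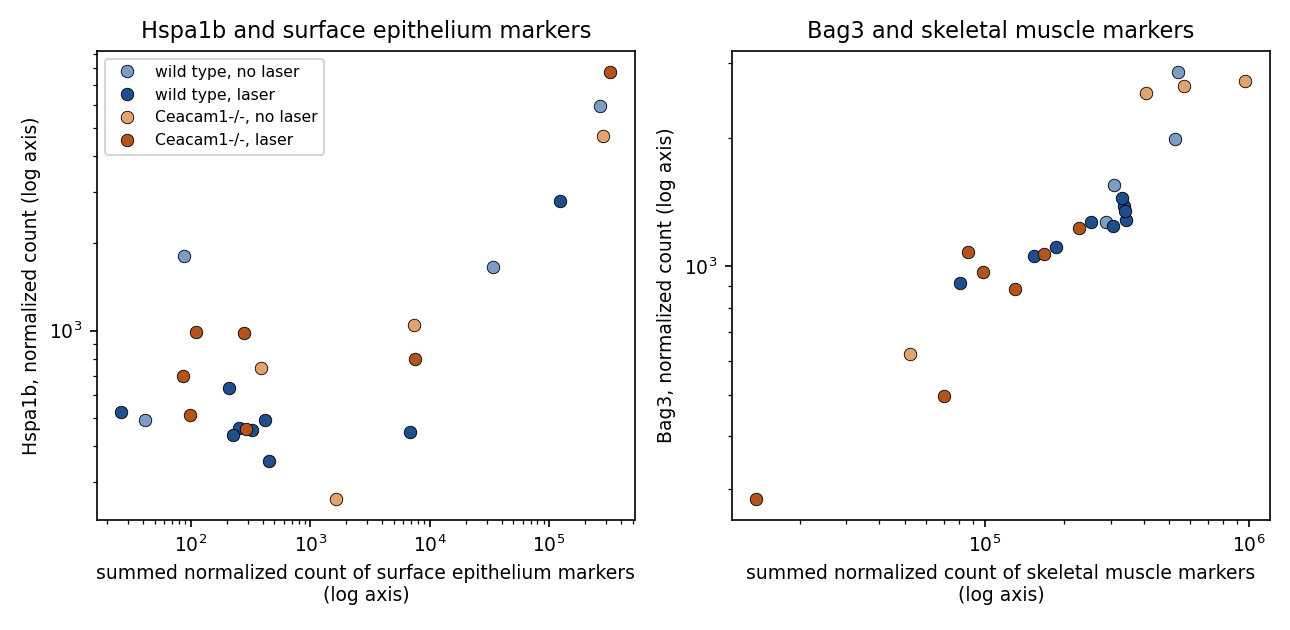
Left, Hspa1b against the sum of 5 surface epithelium markers, and right, Bag3 against the sum of 8 skeletal muscle markers, as normalized counts on log axes, 1 point per library coloured by group. The 4 libraries with epithelium sums above 100000 have the highest Hspa1b counts (2800 to 7773), and Bag3 is lowest (285) in the library with the lowest muscle sum (13696).

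Dnajb1 encodes the J-domain protein that delivers unfolded proteins to HSP70 and starts its ATP cycle. It was 1710, 1702, 1057 and 1273 in wild type without laser and 921 to 1738 with a median of 1274 with laser. Without Ceacam1 it was 1347, 990, 899 and 1765 without laser and 1169 to 2293 with a median of 1370 with laser. The groups overlapped in both genotypes, with log2 differences of -0.18 in wild type and 0.27 in Ceacam1-/- (95% interval -0.16 to 0.70, adjusted p = 0.486 by limma). With group means removed, the levels of Hspa1a, Hspa1b and Dnajb1 moved together over the 24 libraries, with r of 0.90 for Hspa1a and Hspa1b, 0.86 for Hspa1b and Dnajb1 and 0.78 for Hspa1a and Dnajb1. The 4 libraries with epithelial markers belong to this relation, and the r between Hspa1a and Hspa1b can hold reads assigned to the wrong gene of the pair.

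The 5 protein-coding genes closest to Hspa1b over the 24 libraries were Piga (r = 0.928), Pak6 (0.925), Bnc1 (0.922), Phyhip (0.915) and Hspa1a (0.913). Bnc1, a zinc finger protein, was 538, 490, 59.0 and 37.4 normalized counts in libraries 15, 22, 28 and 19, the 4 with high epithelium sums, and at most 12.5 in the other 20.

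Hsph1 encodes HSP110, which exchanges the nucleotide of HSP70 and resets its cycle. It was 3850, 2292, 1542 and 2106 in wild type without laser and 1082 to 1706 with a median of 1500 with laser, so that 6 of 9 laser libraries were below the lowest without. The Ceacam1-/- libraries had 2221, 2678, 1228 and 1803 without laser and 1272 to 1884 with a median of 1450 with laser. The log2 differences were -0.66 in wild type and -0.37 in Ceacam1-/- (95% interval -0.80 to 0.06, adjusted p = 0.336 by limma).

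Hspa8, Hsp90aa1 and Hspb1 stood at the highest levels. Per kilobase of canonical transcript, the mean normalized count in wild type without laser was 17871 for Hspa8, the constitutive HSP70, 7033 for Hsp90aa1, the inducible cytosolic HSP90, 6395 for Hspb1 and 1799 for Hspd1. It was 884 for Hspa1b, 732 for Bag3, 445 for Hspa1a, 406 for Dnajb1, 396 for Hsph1 and 326 for Hsf1, the lowest of the 10. Hspa8 was 58977, 33135, 38712 and 40311 normalized counts in wild type without laser, and 29759 to 39117 with a median of 34801 with laser. The counts in Ceacam1-/- were 39471, 41516, 38615 and 24255 without laser and 22349 to 36098 with a median of 32270 with laser. The log2 differences were -0.26 and -0.24 (95% interval in Ceacam1-/- -0.64 to 0.16, adjusted p = 0.515 by limma).

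Hsp90aa1 was 36668, 13034, 26805 and 22800 in wild type without laser and 15968 to 25406 with a median of 21363 with laser, all 9 within the range of the former. In Ceacam1-/- it was 30443, 26052, 39711 and 13998 without laser and 14081 to 46386 with a median of 22486 with laser. Its log2 differences were -0.16 and -0.08 (95% interval in Ceacam1-/- -0.73 to 0.57, adjusted p = 0.906 by limma). Hspd1 encodes the mitochondrial chaperonin HSP60. It was 4601, 4667, 3284 and 4882 in wild type without laser and 2722 to 5473 with a median of 4666 with laser. Ceacam1-/- libraries had 3742, 4431, 3657 and 3412 without laser and 3158 to 4671 with a median of 3945 with laser, with log2 differences of 0.06 and 0.04 (95% interval in Ceacam1-/- -0.30 to 0.39, adjusted p = 0.904 by limma). This interval is the narrowest among the 9 chaperone genes. Hspe1, the HSP10 partner of HSP60, is transcribed from the same promoter region in the opposite direction and overlaps Hspd1, and its log2 differences were 0.22 in wild type and -0.19 in Ceacam1-/- (adjusted p = 0.682 by limma).

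Hspb1 encodes HSP27, a small heat shock protein that holds unfolded proteins without ATP. It was 4490, 10255, 3868 and 4820 in wild type without laser, and 2371 to 20789 with a median of 4700 with laser. Libraries 1 (20789) and 2 (15277) were the highest of all. In Ceacam1-/- Hspb1 was 1842, 6344, 8940 and 9578 without laser and 785 to 7133 with a median of 2955 with laser. The log2 differences were 0.02 in wild type and -1.23 in Ceacam1-/- (95% interval -2.47 to 0.00, adjusted p = 0.250 by limma), and the groups overlapped.

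Bag3 encodes a co-chaperone that links HSP70 to small heat shock proteins and directs damaged proteins to autophagy, with a known role in muscle. It was 1271, 2854, 1554 and 1992 in wild type without laser and 915 to 1449 with a median of 1267 with laser. In Ceacam1-/- it was 622, 2645, 2721 and 2545 in libraries 23, 24, 25 and 28 without laser, and 285 to 1228 with a median of 971 with laser. All 7 laser libraries were below libraries 24, 25 and 28, and 5 of them were above library 23. The log2 differences were -0.59 in wild type and -1.24 in Ceacam1-/- (95% interval -2.01 to -0.47, adjusted p = 0.0621 by limma, exact permutation p = 0.0424). Bag3 passed the threshold without library 23 (-1.76, adjusted p = 0.00169) or without library 4 (-1.35, adjusted p = 0.0472).

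The skeletal muscle sum moved with Bag3 in part of the libraries, and sums of other cell types did as well. In Ceacam1-/- without laser the muscle sum was 52191 in library 23, where Bag3 was 622, and 569106, 968544 and 406506 in libraries 24, 25 and 28, where Bag3 was 2545 to 2721. With laser it was lowest in library 14 (13696) and highest in library 4 (227718), which had the lowest (285) and the highest (1228) Bag3 counts of that group. Library 15 had a higher muscle sum (129868) than libraries 5 (86654) and 7 (98612), but less Bag3 (882 against 1079 and 971). Endothelial, fibroblast, melanocyte and RPE sums of that group were also lowest in libraries 14, 15 and 18, where Bag3 was lowest (285, 882 and 497). All 8 muscle markers were below 0 in the log2 difference with laser in both genotypes and none passed the threshold. The photoreceptor sum was highest in libraries 18 (601658), 14 (578016), 15 (332883), 23 (331013) and 21 (309860). Hspb1 was lowest in library 14 (785), library 18 (1238) and library 23 (1842), but was 7133 in library 15, the highest of its group, and 4490 in library 21. With group means removed, r between Hspb1 and Bag3 was 0.72 over the 24 libraries. The part of muscle, photoreceptor and other cell type RNA in these differences was not tested.

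**Figure D3:**
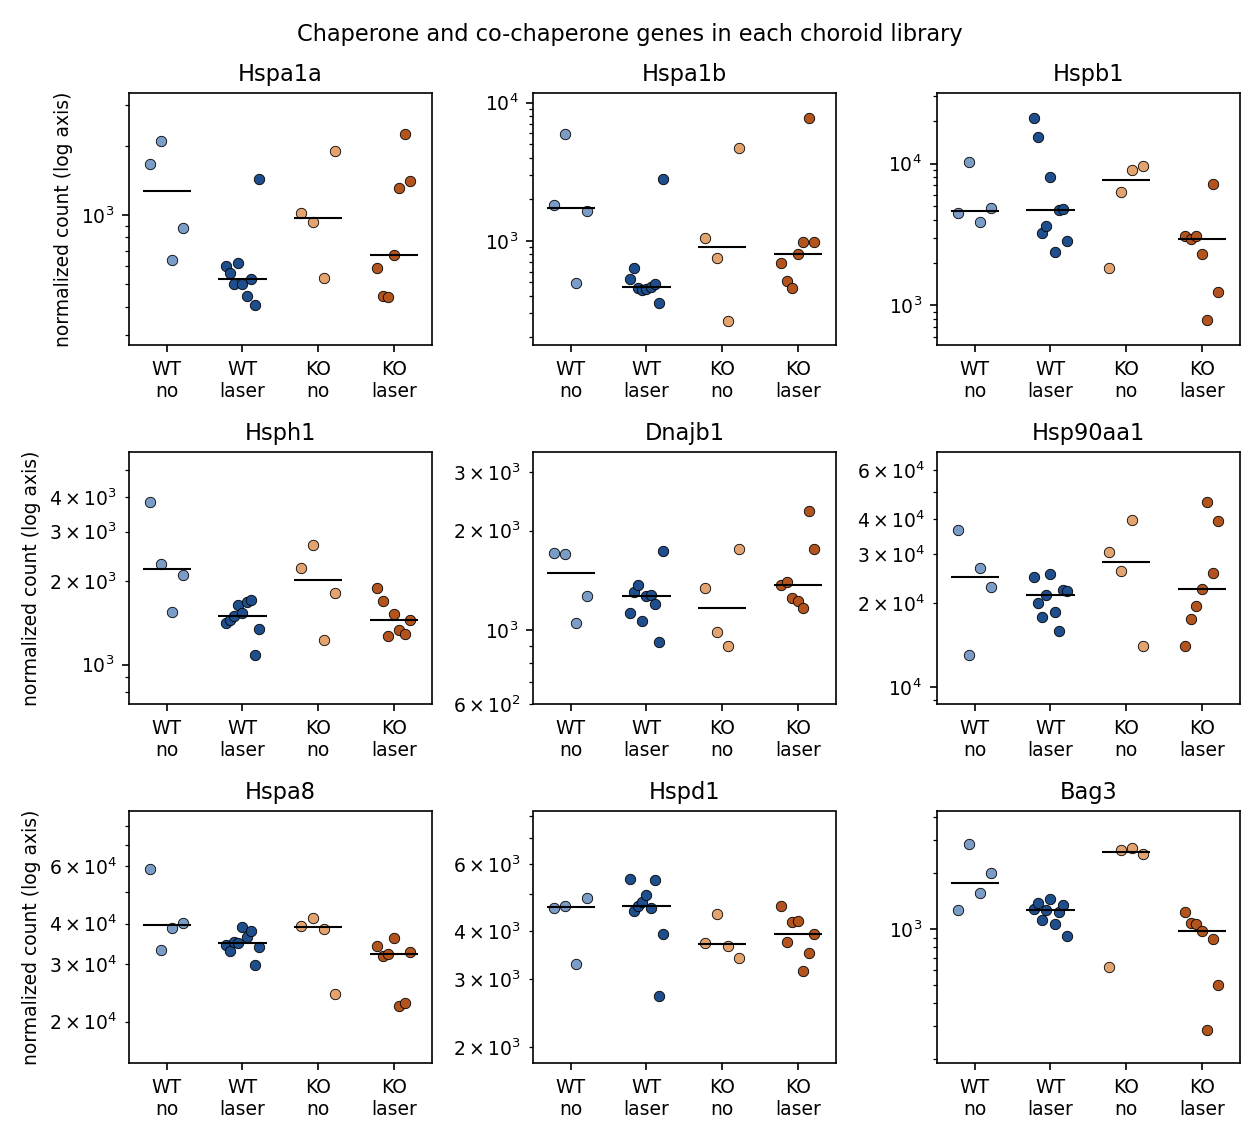
Normalized counts of the 9 chaperone and co-chaperone genes on log axes, 1 point per library, with a line at the group median (WT, wild type, KO, Ceacam1-/-, no, without laser). Hspa1a, Hspa1b and Bag3 have single libraries far from the rest of their group, and Hspd1 (0.250) and Hspa8 (0.260) have the smallest SD within groups on the log2 scale of these 9.

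Of the 10 members, 8 were below 0 in the log2 difference with laser in wild type and 7 in Ceacam1-/-, with medians of -0.43 and -0.23 beside medians of -0.10 and 0.02 over all genes tested. In wild type the signs of Hsp90aa1, Hspb1 and Hspd1 changed when single libraries were left out. In Ceacam1-/- 1 of 10 passed the threshold, Hsf1, against 3.72% of all genes (1.65% lower). The members that passed numbered 0 in a fit of only the Ceacam1-/- libraries. With single libraries left out they numbered 0 to 2, a change in 17 of 24 fits. An unadjusted p under 0.05 was found for 2 of 10, Hsf1 and Bag3, against 20% of all genes. Both laser comparisons come from 1 model, and the members' values in wild type are those from which Hsf1 was chosen.

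**Figure D4:**
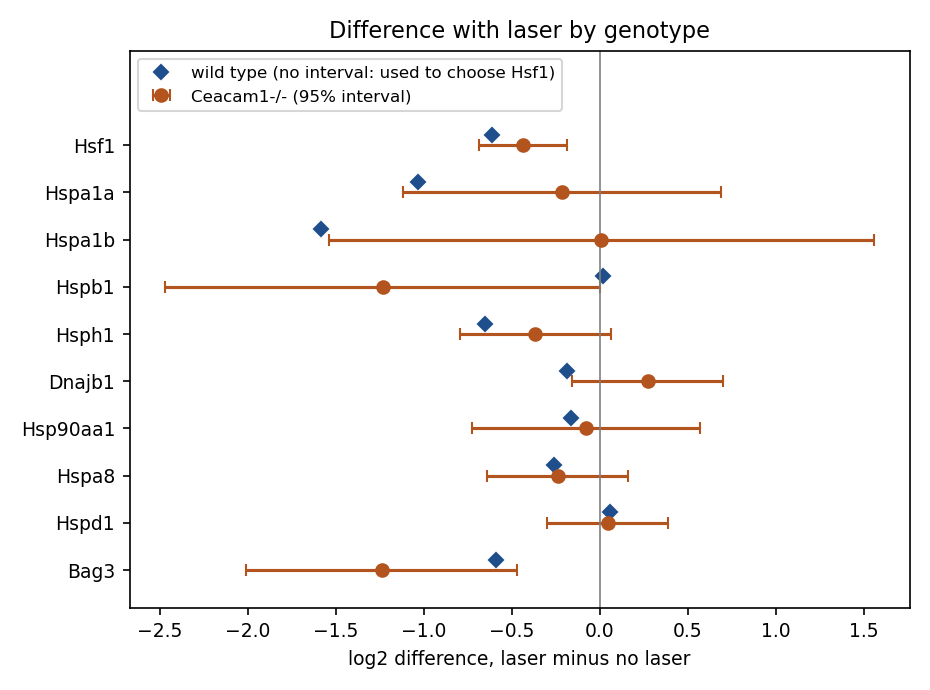
Difference with laser for each of the 10 members on the log2 scale, in Ceacam1-/- choroid with the 95% interval from limma and in wild type as a point. The interval lies below 0 for Hsf1 (-0.68 to -0.19) and Bag3 (-2.01 to -0.47) and includes 0 for the other members.

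Other genes of protein folding were taken from lists of heat shock factors and regulators, HSP70 and HSP110, HSP90, J-domain proteins, small heat shock proteins, chaperonins, co-chaperones and endoplasmic reticulum (ER) stress, 73 genes of which 71 were tested. In Ceacam1-/- 4 of 71 fell with laser and 0 rose, where 1.65% of all genes fell and 3.72% passed in either direction, and the median difference was -0.05. The 4 were Hsf4 (-1.07, adjusted p = 0.0232), a heat shock factor known from the lens, Hspa1l (-1.50, adjusted p = 0.0410), an HSP70 next to Hspa1a, Dnajb5 (-1.08, adjusted p = 0.0348), a J-domain protein, and Cryab (-1.60, adjusted p = 0.0327), the small heat shock protein alpha-B crystallin, all by limma. Their mean normalized counts were 166 and 75.2, 260 and 77.4, 1211 and 504, and 31290 and 10181 without and with laser. This count was 0 without library 24 or library 25, 2 without library 5, 7, 14 or 18, 17 without library 23, and 2 without the 4 epithelial libraries. In wild type 1 of 71 passed, the chaperonin subunit Cct2, which rose by 0.55 on the log2 scale, against 5.28% of all genes.

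The small heat shock protein list had the lowest median in Ceacam1-/-, -1.57 over its 6 genes, all of them below 0, and -0.19 in wild type, also with all 6 below 0. Hspb6 (-1.79), Hspb8 (-1.42), Hspb7 (-1.98), Hspb2 (-1.54) and Hspb3 (-1.45) did not pass the threshold, with adjusted p between 0.0517 and 0.204 by limma. The skeletal muscle markers had a median of -1.98 in the same comparison, with all 8 below 0, the RPE markers -1.66 with all 7 below 0, the surface epithelium markers -2.82 with all 5 below 0 and the photoreceptor markers 2.34 with all 7 above 0. Their part in these differences was not tested. The other medians in Ceacam1-/- were 0.02 for heat shock factors and regulators (1 of 6 lower), 0.28 for HSP70 and HSP110 (1 of 11 lower), -0.32 for HSP90 (0 of 3), -0.06 for J-domain proteins (1 of 14 lower), 0.16 for chaperonins (0 of 9), -0.20 for co-chaperones (0 of 12) and 0.14 for ER stress (0 of 16). In wild type the same lists had medians of 0.14, 0.07, -0.02, -0.26, 0.16, -0.06 and 0.23. Among 11 immediate early genes, which respond within minutes to stress and handling, the median was 0.71 in Ceacam1-/-, where Btg2, a growth-restraining early gene, rose 2.14-fold (adjusted p = 0.0402 by limma), and 0.22 in wild type, where Atf3 rose.

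**Figure D5:**
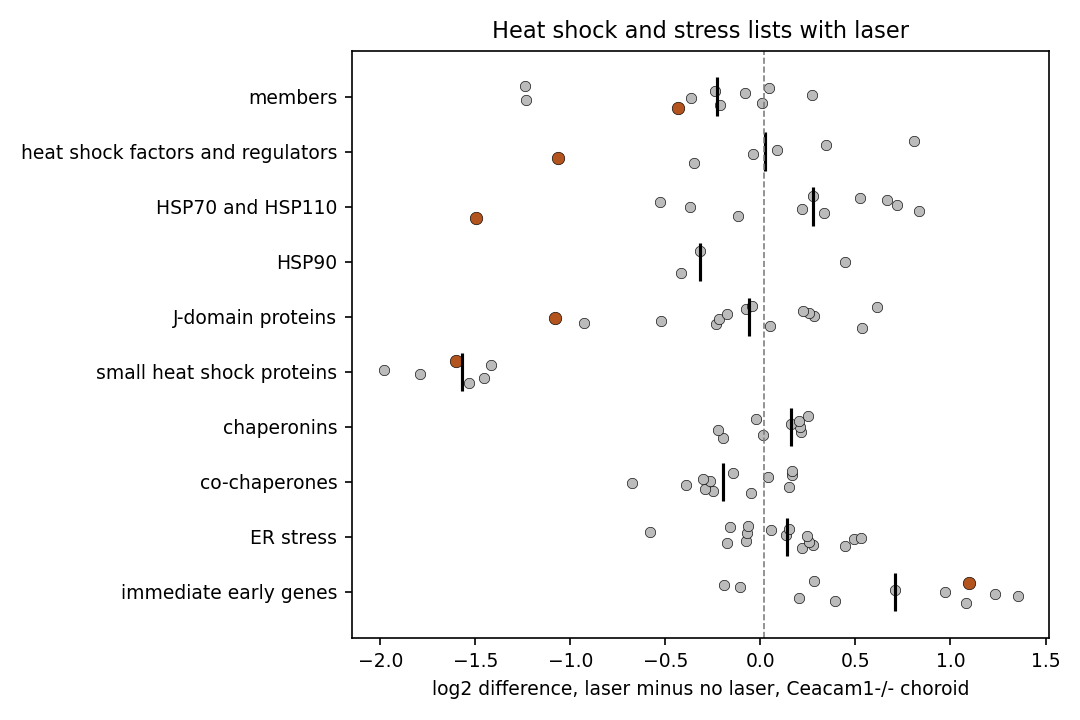
Difference with laser in Ceacam1-/- choroid on the log2 scale for every tested gene of each list, with a black line at the list's median, a dashed line at the median of all genes (0.02) and coloured points for genes past the threshold. All 6 small heat shock proteins lie below 0, with Cryab (-1.60) past the threshold.

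The targeted gene was examined before the genotypes were compared. Ceacam1 was 958, 5027, 1242 and 4596 normalized counts in wild type without laser and 405, 505, 508 and 1171 in Ceacam1-/- without laser. With laser it ranged from 774 to 8367 with a median of 996 in wild type and from 67.8 to 905 with a median of 335 in Ceacam1-/-. Reads from exons outside the deletion can count toward these values, but the exons that the reads came from were not examined. Of the Ceacam1-/- libraries, 3 of 4 and 6 of 7 were below all wild type libraries of the same treatment. The libraries 28 and 15, which were not, had high epithelium sums (284303 and 326591). The log2 differences were -1.95 (adjusted p = 0.999) and -2.17 (adjusted p = 0.104) by limma.

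Without laser, 0 of 10 members passed the threshold between genotypes, 0 had an unadjusted p under 0.05, and the adjusted p was at least 0.999 for each by limma. Of 20057 genes, 0% passed and 1.53% had an unadjusted p under 0.05. Hsf1 was 0.14 higher on the log2 scale in Ceacam1-/- (95% interval -0.26 to 0.53, exact permutation p = 0.314), with 3 of 4 libraries above the highest wild type library. The 4 wild type libraries are those without laser by which Hsf1 was chosen, so this comparison is not independent of the choice either. The estimates of the other members lay between -0.80 for Hspa1b (95% interval -2.92 to 1.33) and 0.15 for Hsp90aa1 (-0.804 to 1.101). Among the chaperone lists 0 of 71 genes passed.

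With laser, 0 of 10 members passed and 3 had an unadjusted p under 0.05, Hsf1, Hspb1 and Bag3, against 0.0202% and 22.7% of 19757 genes. Hsf1 was 1362 ± 109 (SD, n = 7) in Ceacam1-/- and 1098 ± 134 (SD, n = 9) in wild type, a log2 difference of 0.32 that did not pass the threshold. This comparison uses the wild type laser libraries by which Hsf1 was chosen, so it is not independent of the choice. The difference of Hsf1 and its place among the 3 are therefore a description only. Bag3 was 858 and 1229 on average, a log2 difference of -0.65 (95% interval -1.17 to -0.12, adjusted p = 0.168, exact permutation p = 0.00647). Without the 4 libraries with the most photoreceptor RNA among Ceacam1-/- mice (14, 15, 18 and 23, chosen after seeing the data) the Bag3 difference was -0.17 and with array weights it was -0.25. Hspb1 was 2939 and 7288, a log2 difference of -1.20 (95% interval -2.23 to -0.17, adjusted p = 0.182, exact permutation p = 0.0439). The small heat shock protein list again had the lowest median, -1.34, with all 6 genes below 0 and 0 past the threshold, and 0 of 71 chaperone genes passed. In the same comparison the skeletal muscle markers had a median of -1.42 (8 of 8 below 0), the RPE markers -1.56 (7 of 7 below 0) and the photoreceptor markers 2.18 (7 of 7 above 0). The medians were -1.07 for melanocyte (5 of 5 below 0), -0.53 for endothelial (7 of 7), -0.48 for myeloid (8 of 8) and -0.43 for fibroblast markers (6 of 6), and none of all these markers passed the threshold. Their part in the differences of Bag3, Hspb1 and the small heat shock proteins was not tested.

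Whether the difference with laser itself differed between genotypes was tested as an interaction. None of the 10 members passed by limma, 0 had an unadjusted p under 0.05, and 0% of 19950 genes passed, with 6.22% under an unadjusted 0.05. For Hsf1 the difference in Ceacam1-/- was 0.18 smaller in size on the log2 scale (95% interval -0.17 to 0.52, adjusted p = 0.702), a comparison that shares the wild type libraries of the choice. This estimate was 0.0025 with array weights, 0.016 without libraries 14, 15, 18 and 23 and 0.075 to 0.244 with single libraries left out. The estimate was 1.59 for Hspa1b (95% interval -0.55 to 3.74), -1.25 for Hspb1 (-2.96 to 0.46) and 0.02 for Hspa8 (-0.53 to 0.58). These intervals include 0, and these libraries do not tell apart interactions of the sizes within them.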

How the data were processed

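RNA of 24 mouse choroid libraries was made into SMART-Seq mRNA libraries and sequenced by the authors. Per the study's methods, reads were checked with FastQC 0.11.5, pseudo-aligned to GRCm39 with Salmon 1.10.3 and imported into DESeq2 1.44.0, and 1 outlier library, not named, was removed. The deposited signal values are normalized counts that the authors made by dividing estimated counts by factors for library size and transcript length. These factors adjust between libraries and not between genes. The deposited values are not whole, so no count model was used. All columns were mapped to samples by their labels (0 unmapped), and 99.1% of gene identifiers matched the annotation.

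On log2 of the value plus 1, genes with a mean of at least 10 were tested in R 4.3.3 using limma 3.58.1 and a mean-variance trend. Benjamini-Hochberg adjustment was used, and 0.05 was the threshold. Laser and its interaction with genotype were tested in a model of 4 group means over all 24 libraries, genotype in the 8 libraries without and the 16 with laser. The study's covariate, sex, is not in the labels and was not used. The fit was checked on simulated data with 200 genes changed. For single members, exact permutation tests (two-sided) were added. Ddit3 had 2 identifiers, of which the more abundant was used. Promoters were read from the GRCm39 genome with GENCODE starts. Tables and figures were made with matplotlib 3.10.9, scipy 1.17.1, numpy 2.4.6 and pandas 2.3.3 in Python 3.11.15.

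The members and lists were chosen with earlier results of these data known. A planned marker gene is not reported here and was left out of its sum. Named genes are the members, list genes past the threshold (at most the 5 of lowest p per comparison), the most abundant gene of each marker list used, the 5 genes closest to Hsf1 and to Hspa1b, and Ceacam1. Other genes were named after their values were seen. Alternatives were other pseudocounts (0.5 and 10), filters (none, mean of at least 50), scalings (upper quartile, quantile), variance settings (robust, no trend, array weights), a Y-linked covariate, leaving out each library, and fitting laser in 1 genotype alone or genotype over all libraries.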

Additional observations from a re-analysis of the deposited data

Results flagged for a closer look

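Each of the 10 members was examined in each of the 4 groups, 40 sets of 4 to 9 libraries, for a highest or lowest library that stood far from the others by Dixon's test on the log2 scale. Chance gives about 1 such set in 20, and 7 of 40 were found. Hspa1a (1429 normalized counts) and Hspa1b (2800) stood out in library 19, wild type with laser. Hspa1b stood out in library 15 (7773), Ceacam1-/- with laser. Both libraries were among the 4 with the highest surface epithelium marker sums. Hspa8 was lowest in library 28 (24255), Ceacam1-/- without laser, another of the 4. Hspd1 was lowest in library 26 (3284), wild type without laser, and in library 17 (2722), wild type with laser. Bag3 was lowest in library 23 (622), Ceacam1-/- without laser, the library with the lowest skeletal muscle sum of its group (52191).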

How the results depend on the processing

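Over all settings other than single libraries left out, the log2 difference of Hsf1 with laser in Ceacam1-/- was -0.61 to -0.43. Its adjusted p by limma ranged from 0.000257 to 0.248 over these settings. The difference kept its direction under all alternatives run, but its adjusted p was above 0.05 under several. It was 0.0982 with no filter (log2 difference -0.43), 0.0640 with upper-quartile scaling (-0.44), 0.0728 with quantile normalization (-0.43), 0.0627 without trend (-0.43), 0.0540 with the Y-linked covariate (-0.44) and 0.248 in a fit of the Ceacam1-/- libraries alone (-0.43). Without the 4 epithelial libraries, a choice made after seeing the data, it was 0.122 (-0.44). Leaving out single libraries gave -0.54 to -0.37 and an adjusted p of 0.00701 to 0.198, above 0.05 without library 1, 3, 4, 5, 6, 7, 11, 12, 13, 15, 18, 19, 22, 24, 25, 27 or 28. Members that passed in that comparison numbered 0 in these settings, except without library 4, where Bag3 passed, 3 with array weights (Hsf1, Hsph1 and Bag3), 2 without 4 libraries with photoreceptor RNA (14, 15, 18 and 23, chosen after seeing the data) and 0 to 2 with single libraries left out.

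Genes called with laser in wild type numbered 1053, against 6505 with array weights, 2274 with only wild type libraries, 2753 without the photoreceptor libraries and 479 to 1257 with single libraries left out (479 without library 21 and 554 without 27). In Ceacam1-/- 742 were called, against 437 with no filter, 3551 with array weights, 38 with only Ceacam1-/- libraries, 2782 without the photoreceptor libraries and 148 to 2488 with single libraries left out (466 without library 5, 2488 without 23, 255 without 24 and 148 without 25). Between genotypes without laser 0 were called, and 1 without trend, with array weights or without library 24, with 0 to 1 over single libraries left out. With laser 4 were called, against 2 with a mean of at least 50, 297 with array weights, 9 in a fit of all libraries, 2 without the photoreceptor libraries and 4 to 61 with single libraries left out (7 without library 4, 25 without 17 and 61 without 19). The 4 of 71 chaperone genes in Ceacam1-/- became 1 with no filter, 28 with array weights, 0 with only Ceacam1-/- libraries, 23 without the photoreceptor libraries and 0 to 17 with single libraries left out, and between genotypes with laser 0 became 1 with array weights or without library 19. The interaction called 0 genes in all settings.

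Differences that did not pass changed sign as follows, on the log2 scale. For laser in Ceacam1-/-, Hspa1b was -0.024 with quantile normalization, -0.32 with array weights, -0.011 with the Y-linked covariate and -0.70 without the photoreceptor libraries, Hsp90aa1 was 0.17 and Hspa8 0.0090 with quantile normalization. With single libraries left out, ranges crossed 0 for Hspa1a (-0.51 to 0.10), Hspa1b (-0.63 to 0.76), Hsp90aa1 (-0.37 to 0.13) and Hspd1 (-0.0070 to 0.12). For the interaction, array weights gave -0.014 for Hsph1, -0.18 for Hsp90aa1 and -0.0037 for Hspa8, upper-quartile scaling -0.0034 for Hspa8, quantile normalization 0.055 for Hspd1, and leaving out the photoreceptor libraries -0.26 for Hsp90aa1 and 0.091 for Hspd1. Single libraries left out gave -0.21 to 0.36 for Hsp90aa1, -0.15 to 0.14 for Hspa8 and -0.10 to 0.12 for Hspd1. Between genotypes without laser, quantile normalization gave -0.016 for Hspb1 and -0.0089 for Bag3 and array weights 0.0079 for Hsph1, and single libraries left out gave -0.18 to 0.53 for Bag3, -0.13 to 0.44 for Hsp90aa1, -0.57 to 0.040 for Hspa1a and -0.20 to 0.59 for Hspb1. With laser, leaving out the photoreceptor libraries gave -0.13 for Hspa1a and -0.19 for Hsp90aa1, the Y-linked covariate -0.080 for Hsph1 and array weights -0.0092 for Hsp90aa1, and single libraries left out -0.050 to 0.044 for Hsph1. Among differences that kept their sign but moved by over 1.5 times were the following. Over all settings other than single libraries left out, the range was -0.73 to -0.17 for Bag3, -1.58 to -0.71 for Hspb1 and 0.07 to 0.80 for Hspa1b between genotypes with laser, 0.0025 to 0.18 for Hsf1 and 0.89 to 1.60 for Hspa1b in the interaction, and -0.54 to -0.20 for Hsph1 and -0.89 to -0.14 for Hspa1a with laser in Ceacam1-/-. Single libraries left out gave -0.76 to -0.41 for Bag3 between genotypes with laser and 0.07 to 0.24 for Hsf1 between genotypes without laser. Larger moves with single libraries left out were -1.54 (without 28) to -0.16 (without 25) for Hspa1b between genotypes without laser, 0.96 to 2.34 for its interaction, and in Ceacam1-/- with laser 0.13 to 0.45 for Dnajb1, -0.42 to -0.16 for Hspa8 and -0.58 to -0.20 for Hsph1. In wild type with laser the members are given as a description, without p-values. Single libraries left out there gave -2.19 to -0.99 for Hspa1b, -1.33 to -0.76 for Hspa1a, -0.85 to -0.41 for Hsph1, -0.76 to -0.37 for Bag3, -0.37 to -0.097 for Hspa8 and -0.32 to -0.091 for Dnajb1, and ranges that crossed 0 for Hspb1 (-0.22 to 0.32), Hsp90aa1 (-0.44 to 0.055) and Hspd1 (-0.072 to 0.15). Other settings gave -0.22 to 0.44 for Hspb1 and -0.0031 to 0.12 for Hspd1. The causes were not tested. No paired analysis was made because the labels name no pairs of libraries, for example by litter. The intervals of Hspa1a, Hspa1b and Hspb1 are wide, and the reason was not tested. Each group without laser held 4 libraries, and marker sums differed many-fold between libraries.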
